A study of Rattus norvegicus with 12 samples.

Results

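The resting transcriptome of cells labelled ND7/23 was described from the 3 control libraries among the 12 libraries of the series, which were chosen by their treatment label alone. ND7/23 is a hybrid line made by fusing rat dorsal root ganglion (DRG) neurons with mouse N18Tg2 neuroblastoma cells, and it is used as a stand-in for sensory neurons. The controls carry the label CON with a time of 6 h, matched to the treated libraries, and received neither menthol, an agonist of the cold receptor TRPM8, nor the Wnt ligand given to other groups. No vehicle is named for them. By the study's methods the cells were kept in DMEM with fetal bovine serum and stimulations were run in DMEM without serum, and whether the sequenced cells had been differentiated is not given. All libraries come from 1 line, and the labels do not say whether the 3 controls were separate cultures, so the spread reported here may be partly technical.

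Sensory neurons of the DRG carry signals of touch, temperature, pain and position to the spinal cord. They are known for neurofilaments and the intermediate filament peripherin, for vesicle proteins, for the sodium channels *Scn9a*, *Scn10a* and *Scn11a*, for neurotrophin receptors such as *Ntrk2* and *Ntrk3*, and for peptides such as CGRP. Mesenchymal cells such as fibroblasts are known for vimentin, for fibrillar collagens and the enzymes that process them, and for transcription factors of the Twist, Prrx and Zeb families. Expression was given as FPKM, the read fragments on a gene scaled by its length and by the mapped fragments of the library, so levels of different genes are compared per length throughout. Where 3 values stand in a row, they are control replicates 1, 2 and 3.

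The table held 21556 genes, 17733 of them protein coding and 3823 non-coding. The reads on these genes numbered 38837023, 38068742 and 38649592. Genes at 3 reads or fewer are called at the floor here. For a 1 kb gene, 3 reads corresponded to 0.0772 to 0.0788 FPKM, a limit that covers counting error only. Above the floor in every control library were 13803 genes (64.0%), whereas 5462 genes (25.3%) were at the floor in every control library and 2522 of these had no read at all.

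Protein coding genes made up nearly all of the signal. A mean of 1 FPKM or more was reached by 10457 of 17733 coding genes (59.0%) and by 191 of 3823 non-coding genes (4.996%), and non-coding genes took 0.352% ± 0.00252 of the summed FPKM (SD, n = 3). Over all genes, 10648 (49.4%) were at 1 FPKM or more, 5812 at 10 or more, 721 at 100 or more and 49 at 1000 or more. The median gene was at 0.885 FPKM, and the median coding gene at 2.97 FPKM. The distribution had a main peak between 8 and 16 FPKM and a long shoulder of genes under 1 FPKM, and its shape was alike in the 3 libraries.

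**Figure D1:**
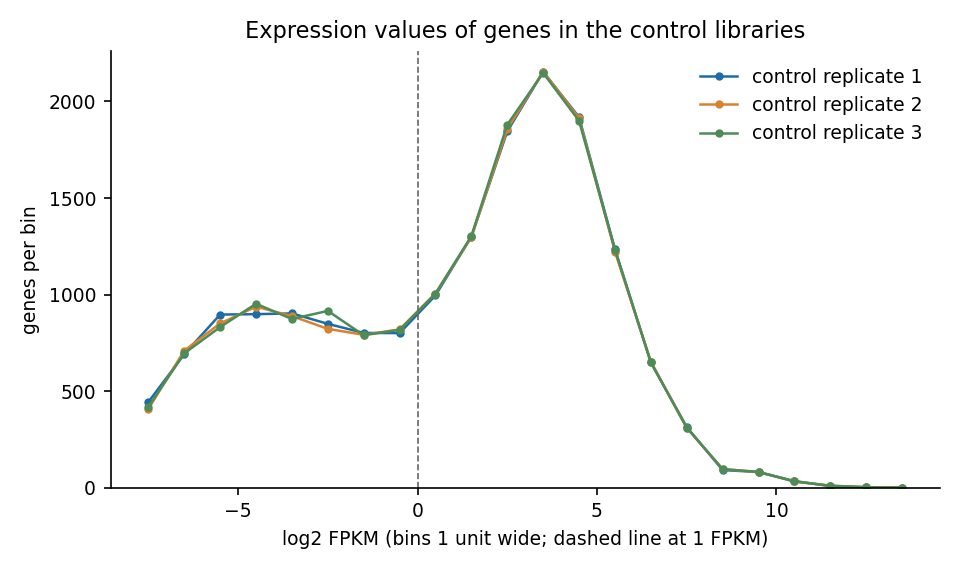
Number of genes per bin of log2 FPKM in each of the 3 control libraries, with 1 line per library and a dashed line at 1 FPKM. The lines peak in the bin from log2 3 to 4, with 2154, 2155 and 2148 genes. Genes with no read or under log2 -8 are not drawn.

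The most abundant transcripts were mitochondrially encoded. Of the 20 genes with the highest mean FPKM, 9 were mitochondrially encoded, led by *COX1*, a subunit of cytochrome c oxidase, at 12169.8, 12108 and 12336 FPKM. The ATP synthase subunit *ATP6* stood at 7174, 7114 and 7169 FPKM. *COX2*, *COX3*, *CYTB*, *ND1*, *ND2*, *ND4* and *ND3*, further subunits of the respiratory complexes, had mean levels from 6813 down to 1777 FPKM. The 13 mitochondrially encoded genes together took 11.03% ± 0.127 of the summed FPKM, and 4.99% ± 0.0612 of the reads.

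The nuclear genes at the top were *Eef1a1*, the translation elongation factor, at 3111, 3146 and 3171 FPKM, *Fth1*, the ferritin heavy chain, at 2986, 3005 and 2973 FPKM, and *Actb*, cytoplasmic β-actin, at 2964, 2912 and 2959 FPKM. Next came *Anxa2*, a calcium-dependent membrane-binding annexin, at 2374, 2415 and 2399 FPKM. Ribosomal and translation-associated genes followed with *Rplp0*, *Tpt1* and *Rpl41* at means of 2244, 2064 and 2045 FPKM. The 94 ribosomal protein genes took 13.4% ± 0.228 of the summed FPKM. Their levels are uncertain gene by gene, since many have near-identical copies and the handling of reads that map to several places is not given. The glycolytic enzyme *Gapdh* was at 1750.5 ± 8.09 FPKM (SD, n = 3). Also within the top 20 were a galectin, *Lgals1*, at 1882, 2024 and 1916 FPKM, and the secreted serine protease *Htra1*, at 1543, 1553 and 1591 FPKM. The 10 most abundant genes held 11.3% ± 0.0956 of the summed FPKM and the 100 most abundant held 32.7% ± 0.158. Counted in reads the top 10 held 6.16%, and without the mitochondrially encoded genes 5.73% of the summed FPKM.

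The line's label as a sensory neuron model was set against defining markers, and most of these were at or near 0. The data thus go against the label on this point, and the cells are called ND7/23 here only because the labels name them so. Their identity was not tested. Of 40 genes used by neurons in general, 10 were at 1 FPKM or more and 14 were at the floor in every control library. Their median was 0.0377 FPKM. Over all genes 49.4% were at 1 FPKM or more with a median of 0.885 FPKM, and over coding genes 59.0% with 2.97 FPKM. Of 30 sensory neuron genes analysed from a list of 32, 3 were at 1 FPKM or more, 15 were at the floor and 10 had no read. In bulk libraries, fewer cells of a type and less RNA per cell cannot be told apart. The reads were mapped to a rat genome build, mRatBN7.2 by the submitters' processing notes, and how reads of mouse transcripts were assigned is not given, so their part in these low values was not tested.

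Among neuronal structural genes, *Tubb3*, the neuronal β-tubulin, had 0, 1 and 5 reads and is named after its values were seen. The growth-cone protein *Gap43* had 0, 1 and 1 reads, the RNA-binding proteins *Elavl3* and *Elavl4* had at most 3, and the neurofilament genes *Nefm* and *Ina* at most 2. The neuronal nuclear antigen *Rbfox3* had 0, 2 and 0 reads. The microtubule regulator *Stmn2* and the granule protein *Chga* had no read in any control library. *Syp*, *Nsg1* and *Nsg2*, all tied to vesicles or endosomes, stayed at 3 reads or fewer as well.

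A smaller set of genes from the neuronal list was well expressed. *Eno2*, the neuron-specific enolase, was at 159.6, 169 and 163 FPKM, and *Uchl1*, a deubiquitinase abundant in neurons, at 102, 99.5 and 94.2 FPKM. *Vamp2*, a vesicle fusion protein, was at 23.003, 21.3 and 21.96 FPKM. *Dlg4*, a postsynaptic scaffold, was at 10.002, 10.6 and 9.99 FPKM, and the adhesion molecule *Ncam1* at 8.94, 8.81 and 8.76 FPKM. These genes lay close together across the 3 libraries, and they were the 5 most abundant of the list. The other members at 1 FPKM or more, named after their values were seen, were the microtubule protein *Map2*, the heavy neurofilament *Nefh*, *Cplx2*, *Elavl2* and *Stx1a*, with means of 7.098, 5.83, 5.098, 1.93 and 1.79 FPKM.

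Many receptors, channels and peptides that define sensory neuron classes had no read. *Calca* and *Calcb*, which encode CGRP, *Scn10a* and *Scn11a*, the sodium channels of nociceptors, *Ntrk2*, the receptor of BDNF, *Ret*, *Gfra2* and *Gfra3*, which form receptors of the GDNF family, and the POU factor *Pou4f2* had no read in any control library. The irritant receptor *Trpa1* had 1, 2 and 1 reads, and peripherin (*Prph*) had 0, 3 and 1. *Sst*, *Mrgprd* and *Pou4f3* also stayed at the floor. The sensory genes that were expressed were transcription factors: *Runx1*, which sorts nociceptor classes, was at 34.7, 33.7 and 32.7 FPKM, *Isl1* at 11.3, 11.4 and 10.8 FPKM and *Runx3*, a factor of proprioceptors, at 3.91, 3.73 and 3.504 FPKM. Next in the list were the peptide gene *Nppb*, at 1.09, 0.344 and 0.0752 FPKM, and the actin-binding *Avil*, at 0.256, 0.551 and 0.438 FPKM. For *Nppb* the values rest on 29, 9 and 2 reads, and the libraries are far apart.

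*Trpm8*, the cold and menthol receptor, was at 0.189, 0.212 and 0.274 FPKM, from 61, 67 and 88 reads on a gene model of 8318 bases. All 3 libraries were above the floor and under 0.3 FPKM, and the gene ranked 12390 of 21556 by mean FPKM. The spread of *Trpm8* between the libraries did not pass the test against counting error described below.

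Some markers of mesenchymal cells were among the most abundant transcripts. Of 47 mesenchymal and fibroblast genes, 36 were at 1 FPKM or more, 22 at 10 or more and 10 at 100 or more, none was at the floor, and the median was 8.10 FPKM. After *Anxa2* and *Lgals1*, the intermediate filament *Vim* was at 899.6, 919 and 929 FPKM. The calcium-binding proteins *S100a4* and *S100a6* were at 918, 913 and 893 FPKM and 848, 868 and 870.0 FPKM. The adhesion receptor *Cd44* was at 259.6, 259 and 262 FPKM. *Col1a2* had a mean of 122.7 FPKM, but *Col1a1*, *Pdgfra*, *Pdgfrb* and *Col3a1* only 7.46, 7.15, 3.24 and 2.83 FPKM. These lower genes are named after their values were seen. The list was not uniform: *Acta2*, *Nt5e*, *Postn*, *Mmp2*, *Eng*, *Tgfbi*, *Dcn*, *Lum*, *Cdh11*, *Fap* and *Col6a3*, which include smooth muscle actin, stromal surface proteins and small matrix proteoglycans, were all under 1 FPKM, and these 11 genes are named after their values were seen.

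Within each library, the median of log2(FPKM + 0.1) over the 47 mesenchymal genes exceeded that over the 40 neuronal genes by 6.06, 5.92 and 5.61. The mean difference was 5.86 ± 0.23 on the log2 scale (SD, n = 3), and no gene stands in both lists. The logarithm of the ratio of the summed FPKM was 4.91, 4.91 and 4.94, with a mean of 4.92 ± 0.0145. The size of the median difference depends on how near-empty genes are treated: it was 3.15 with a pseudocount of 1, 7.29 with 0.01, and 1.94 when members under 0.5 FPKM were left out of both lists. No setting changed its direction, but both lists were chosen with earlier results of these data known. The direction therefore describes these lists and was not tested.

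**Figure D2:**
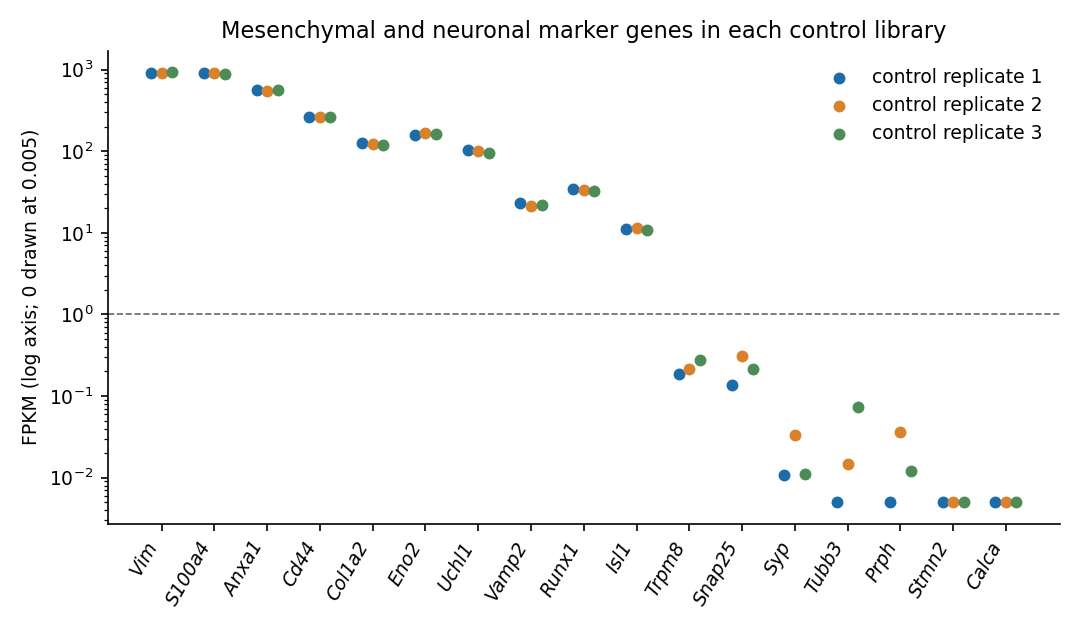
FPKM of 17 marker genes in each of the 3 control libraries on a log axis, with 1 point per library, values of 0 drawn at 0.005 and a dashed line at 1 FPKM. The mesenchymal markers at the left and the neuronal genes up to *Isl1* lie above 10 FPKM, while *Trpm8*, *Snap25*, *Syp*, *Tubb3* and *Prph* lie under 1 FPKM and *Stmn2* and *Calca* at 0.

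The start regions of 4 of these genes are shown because they span the range of levels: *Vim* and *Thbs1*, a secreted matrix protein, were among the 100 most abundant genes, *Tubb3* was near 0 and *Calca* had no read. Each sequence runs 5′ to 3′ on the gene's strand, from 250 bases before the annotated start to 50 after it, as given by RefSeq for the GRCr8 build, which is not the build of the expression values. Capitals mark the letters TATAAA, those of the CAAT motif (CCAAT) and those of the GC box (GGGCGG), on either strand, and no marked matches overlap. The *Vim* region is chr17:81577011-81577310 on the forward strand, that of *Thbs1* is chr3:125510000-125510299 on the forward strand, that of *Tubb3* is chr19:68365437-68365736 on the forward strand and that of *Calca* is chr1:178317480-178317779 on the reverse strand.
Vim: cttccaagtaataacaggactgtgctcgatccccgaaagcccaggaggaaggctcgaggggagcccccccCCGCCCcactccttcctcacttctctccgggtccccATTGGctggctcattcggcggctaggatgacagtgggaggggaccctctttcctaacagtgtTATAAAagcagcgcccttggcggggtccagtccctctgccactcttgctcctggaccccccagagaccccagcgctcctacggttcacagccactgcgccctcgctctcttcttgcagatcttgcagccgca
Thbs1: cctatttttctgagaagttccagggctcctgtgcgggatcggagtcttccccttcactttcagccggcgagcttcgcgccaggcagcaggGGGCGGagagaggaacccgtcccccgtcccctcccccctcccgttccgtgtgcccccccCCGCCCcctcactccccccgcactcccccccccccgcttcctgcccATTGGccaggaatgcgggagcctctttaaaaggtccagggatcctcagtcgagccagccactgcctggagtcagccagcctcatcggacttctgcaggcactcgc
Tubb3: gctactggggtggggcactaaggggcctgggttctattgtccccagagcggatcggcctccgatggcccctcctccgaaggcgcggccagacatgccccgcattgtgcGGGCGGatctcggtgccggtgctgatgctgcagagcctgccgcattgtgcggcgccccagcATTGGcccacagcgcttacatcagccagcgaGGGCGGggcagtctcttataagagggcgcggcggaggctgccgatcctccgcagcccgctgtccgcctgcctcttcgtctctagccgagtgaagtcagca
Calca: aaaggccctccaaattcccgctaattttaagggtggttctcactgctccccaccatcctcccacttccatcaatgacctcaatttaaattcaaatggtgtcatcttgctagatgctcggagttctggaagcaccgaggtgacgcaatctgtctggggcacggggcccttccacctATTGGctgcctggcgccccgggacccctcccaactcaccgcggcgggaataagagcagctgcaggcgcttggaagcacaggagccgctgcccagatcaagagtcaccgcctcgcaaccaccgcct

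The *Vim* region held 1 match to each of the 3 motifs, with 14 CpG dinucleotides. The *Thbs1* region held 1 CCAAT and 2 GGGCGG matches and 18 CpG, and the *Tubb3* region the same numbers of matches with 26 CpG. The *Calca* region held 1 CCAAT match and 15 CpG. Among all 27457 start regions of the reference, on either strand, 14.3% held TATAAA, 37.7% held CCAAT and 34.9% held GGGCGG. These regions are not limited to coding genes or to genes with expression values. For all coding genes with expression values that had a region, the shares were 9.08%, 37.7% and 53.6%, with a median of 18 CpG. The classes of coding genes below are to be read against these shares. Among coding genes at 10 FPKM or more outside the 100 most abundant, 84.1% had a region and of these 5.95% held TATAAA, 39.3% CCAAT and 68.2% GGGCGG, with a median of 23 CpG. Among coding genes at 1 to 10 FPKM, 81.8% had a region and the shares were 6.02%, 38.0% and 60.5%, with a median of 20 CpG. For the classes under 1 FPKM and the 100 most abundant genes the comparison is void, because fewer than 80% of their genes were matched to a region. A match is a string of letters and says nothing of binding. Gene models were shortest among the most abundant genes, with a median length of 818.5 bases for the 100 most abundant without mitochondrially encoded genes, against 2951.5 bases over the whole table.

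Markers of the line's neuroblastoma parent, and of other cell types that such a culture could hold, were mostly under 1 FPKM. Of 16 sympathoadrenal and neuroblastoma genes analysed from 20, 2 were at 1 FPKM or more: *Hand2*, a factor of sympathetic precursors, at 17.1, 16.5 and 17.3 FPKM, and *Gata3* at 1.13, 1.09 and 0.944 FPKM. *Cyb561*, *Chrnb4* and *Lmo1* followed at means of 0.477, 0.245 and 0.1101 FPKM. Of the defining genes, *Th*, the rate-limiting enzyme of catecholamine synthesis, had 0, 0 and 1 reads and *Mycn* had 0, 1 and 0, both named after their values were seen.

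Of 15 Schwann and satellite glia genes, 3 were at 1 FPKM or more, led by *Prx* at 2.46, 2.65 and 2.52 FPKM, *Gfap* at 1.399, 1.55 and 1.47 FPKM and *Erbb3* at 1.03, 0.889 and 1.13 FPKM, followed by *Egr2* at 0.665 FPKM. The glial factor *Sox10*, named after its values were seen, had no read. Of 27 skeletal muscle genes analysed from 31, 4 were at 1 FPKM or more, namely *Tnnt3*, *Tnnc1*, *Cav3* and *Myl4*, with means from 7.75 down to 1.504 FPKM, and *Des* was at 0.779 FPKM. Of 10 endothelial genes, *Tek* alone was at 1 FPKM or more, with 3.701, 3.21 and 3.65 FPKM, ahead of *Vwf*, *Pecam1*, *Kdr* and *Emcn* at means from 0.347 to 0.0688 FPKM.

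Of 14 immune genes, 4 were at 1 FPKM or more: *Cd14*, a co-receptor of lipopolysaccharide, at 8.55, 7.71 and 8.55 FPKM, *Cd74* at 1.63, 2.2997 and 1.62 FPKM, *Cd68* at 0.8796, 1.27 and 1.81 FPKM and *Csf1r* at 1.099, 1.32 and 0.916 FPKM. *Fcer1g* was at 0.837, 0.385 and 0.651 FPKM, while the pan-leukocyte gene *Ptprc*, named after its values were seen, had 1, 1 and 1 reads. Of 13 epithelial genes analysed from 14, 3 were at 1 FPKM or more: the tight junction gene *Cldn4* at 25.9, 26.2 and 25.02 FPKM, *Krt7* at 14.7, 13.2 and 15.97 FPKM and *Krt8* at 2.27, 2.05 and 2.23 FPKM. *Cdh1*, the epithelial cadherin, was at 0.0293, 0.0239 and 0.0118 FPKM and *Grhl2* at 0.0121 FPKM. The summed FPKM of the glial, muscle, endothelial and immune lists was 4.16 to 20.4 in every control library and that of the epithelial list 41.5 to 43.3, against 9889.7 to 10028 for the mesenchymal list and 324 to 333 for the pan-neuronal list.

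**Figure D3:**
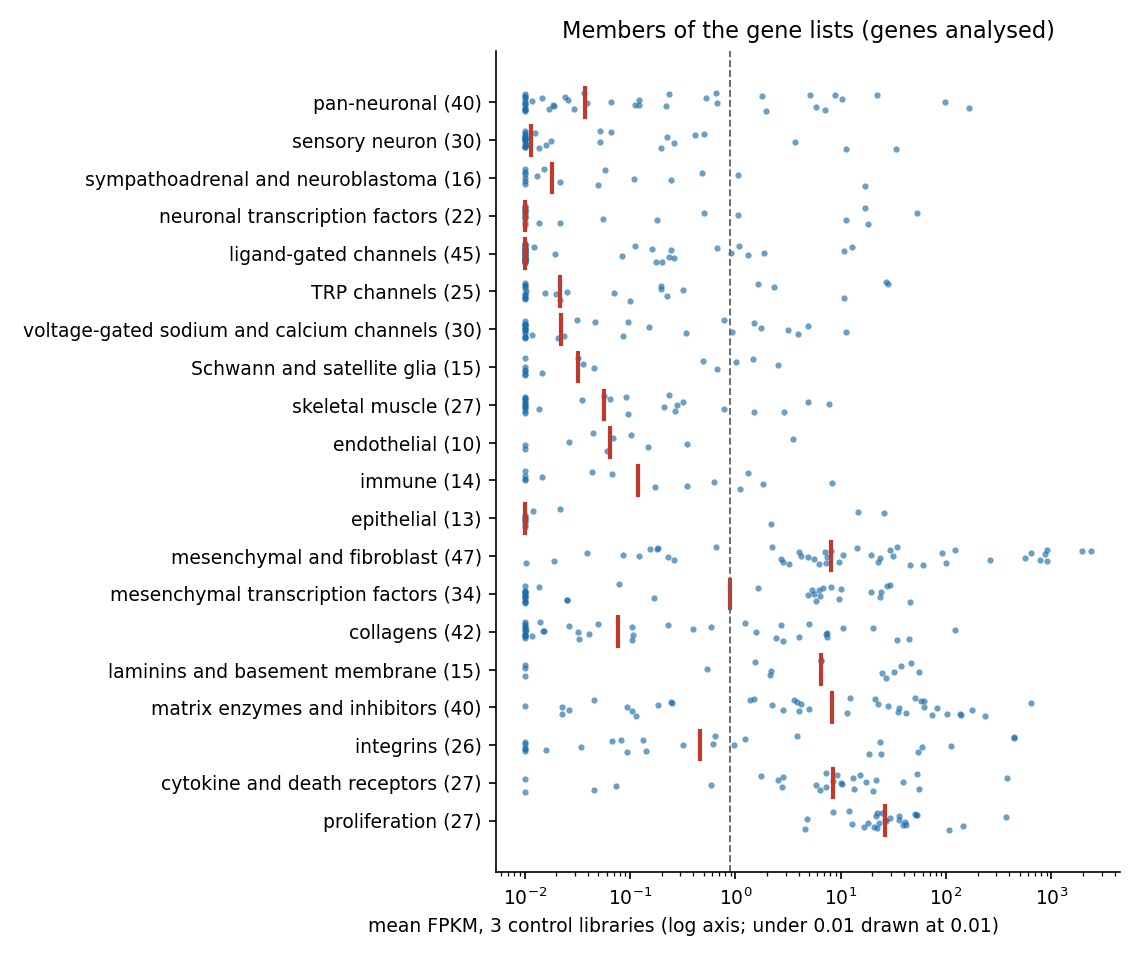
Mean FPKM of the members of 20 gene lists on a log axis, with 1 point per gene, a red bar at the list's median, a dashed line at the median of all genes (0.885 FPKM) and values under 0.01 drawn at 0.01. The neuronal, channel, glial, muscle, endothelial, immune and epithelial lists have medians under 0.2 FPKM, and the mesenchymal and fibroblast, basement membrane, matrix enzyme, cytokine receptor and proliferation lists have medians above 6 FPKM.

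Among transcription factors, members of the neuronal and of the mesenchymal lists were both found. Of 22 neuronal factors analysed from a list of 30, 5 were at 1 FPKM or more and 12 were at the floor, with a median of 0.00579 FPKM. *Sox2*, a factor of neural and other stem cells, was the most abundant of them at 52.01, 54.2 and 52.6 FPKM, and the LIM factor *Lhx2* was at 17.9, 18.9 and 18.1 FPKM. *Hand2*, *Isl1* and *Gata3*, given above, completed the 5. *Rest*, the repressor of neuronal genes in non-neuronal cells, was at 6.32, 6.503 and 6.21 FPKM.

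Of 34 mesenchymal factors analysed from 40, 17 were at 1 FPKM or more, 12 were at the floor and the median was 0.899 FPKM. That is close to the median of all genes, 0.885 FPKM, and under that of coding genes, 2.97 FPKM. *Twist1*, a regulator of mesenchymal fate, was at 43.8, 46.99 and 44.7 FPKM, *Prrx1* at 30.5, 28.9 and 29.2 FPKM and *Prrx2* at 23.4, 25.2 and 22.4 FPKM. *Tcf12*, a partner of Twist factors, was at 27.97, 27.6 and 27.3 FPKM and *Osr2* at 24.5, 23.9 and 23.7 FPKM. All 5 were above 22 FPKM in every library.

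Among 114 general transcription factors and chromatin regulators analysed from 116, 98 were at 1 FPKM or more, with a median of 12.8 FPKM. The chromatin proteins *Hmga1* and *Hmga2*, both abundant in embryonic and transformed cells, were at 891, 924 and 872 FPKM and 226, 234 and 233 FPKM. The nucleic acid binding protein *Ybx1* was at 264, 258 and 261 FPKM. *Atf4*, a factor of the integrated stress response, was at 196, 198 and 194 FPKM, and *Hif1a*, the oxygen-sensitive factor, at 162, 156 and 159 FPKM.

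The Hox genes, which set position along the body axis, were led by members of the Hoxd cluster. Of 34 Hox genes analysed from 52, 16 were at 1 FPKM or more and 6 were at the floor. *Hoxd8* was at 20.6, 20.5 and 19.8 FPKM, *Hoxd9* at 15.1, 18.7 and 18.3 FPKM and *Hoxd10* at 8.69, 10.6 and 10.7 FPKM. *Hoxd11* was at 13.8, 14.6 and 14.5 FPKM and *Hoxd13* at 20.5, 18.4 and 18.4 FPKM, while *Hoxd12* between them had 5, 1 and 2 reads and *Hoxd1* had 1, 0 and 0. Of the Hoxb genes, *Hoxb13* stood apart at 15.8, 14.99 and 18.01 FPKM, with *Hoxb6* and *Hoxb5* at means of 2.87 and 1.07 FPKM. Of the Hoxa genes, *Hoxa2*, *Hoxa3*, *Hoxa4*, *Hoxa5* and *Hoxa13* were between 1.91 and 3.32 FPKM on average, and *Hoxa11* had no read. *Hoxd3* and *Hoxd4* were at 1.64 and 1.66 FPKM. No Hoxc gene reached 0.3 FPKM, and *Hoxc10* and *Hoxc13* had no read. At the top of the order, the values of *Hoxd8* and *Hoxd13* overlapped between libraries, as did those of *Hoxd13* and *Hoxd9*. In *Hoxd9*, replicate 1 was lower than the other libraries, and its spread passed the test against counting error. *Hoxd12*, *Hoxd1* and the Hox genes at 0 are named after their values were seen.

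**Figure D4:**
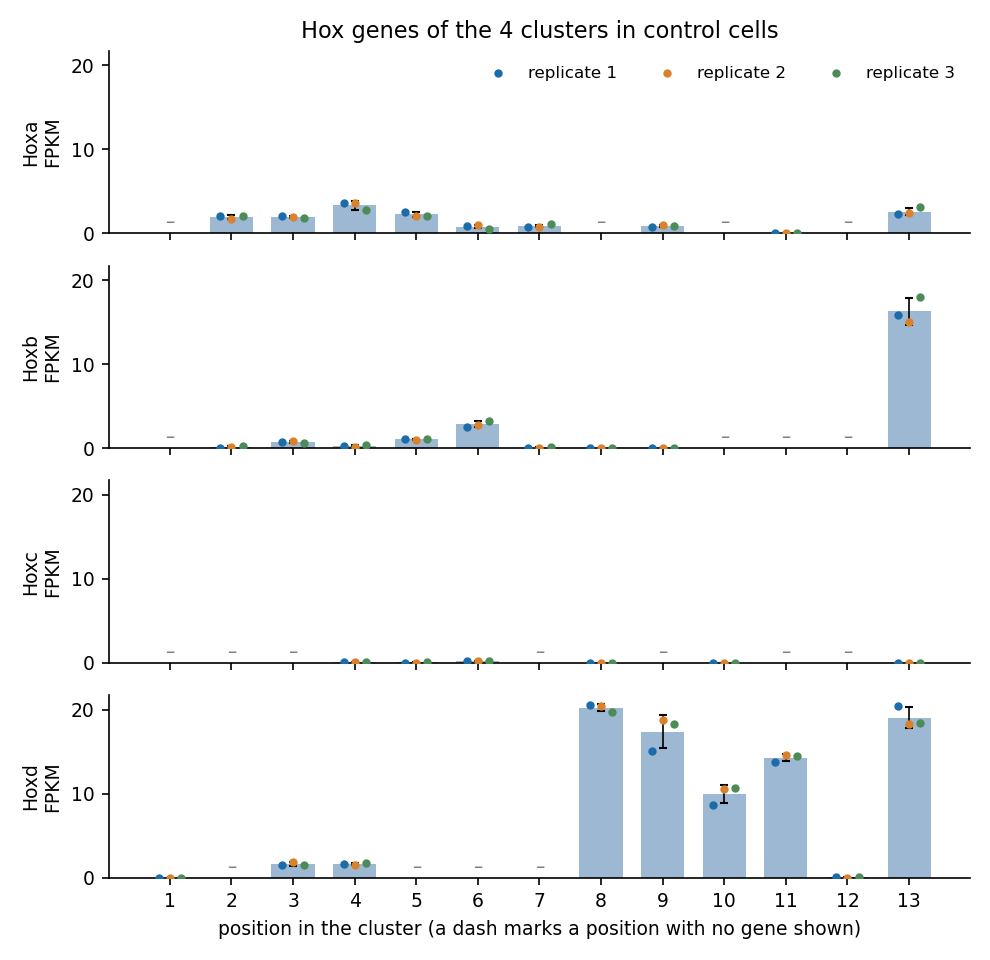
FPKM of the Hox genes reported, by cluster (rows) and position in the cluster (x axis), with bars for the mean, error bars for the SD and points for the 3 control libraries. The Hoxd genes 8 to 11 and 13 and *Hoxb13* lie between 8 and 21 FPKM in every library, and all other Hox genes lie under 4 FPKM.

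Receptors were sampled in 4 groups. Of 49 receptor tyrosine kinases, 22 were at 1 FPKM or more and 14 were at the floor. *Axl*, the receptor of the ligand GAS6, led at 308, 304 and 297 FPKM, ahead of the ephrin receptor *Epha2* at 78.9, 77.2 and 77.01 FPKM and the collagen receptor *Ddr1* at 73.1, 67.4 and 66.8 FPKM. *Ryk* and *Ptk7*, which take part in Wnt signaling, were at 49.4, 49.9 and 49.7 FPKM and 23.9, 24.8 and 22.5 FPKM. *Axl* alone of the list exceeded 100 FPKM.

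G protein-coupled receptors were sparse, with 13 of 75 analysed at 1 FPKM or more, 30 at the floor and a median of 0.0393 FPKM. The thrombin receptor *F2r* was at 41.6, 39.97 and 39.5 FPKM and the ATP and UTP receptor *P2ry2* at 20.5, 19.3 and 18.6 FPKM. The adhesion receptor *Adgrg1* was at 17.1, 18.2 and 17.3 FPKM, the GABA-B subunit *Gabbr1* at 16.3, 15.4 and 15.6 FPKM and the sphingosine-1-phosphate receptor *S1pr2* at 9.09, 9.58 and 9.13 FPKM. The opioid receptors *Oprm1* and *Oprk1* and the dopamine receptors *Drd1* and *Drd2* had no read, and are named after their values were seen.

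Receptors of the Wnt, TGF-β, Notch and guidance pathways were present for 27 of 44 genes at 1 FPKM or more, with a median of 3.28 FPKM. *Nrp2*, a co-receptor of semaphorins and VEGF, was at 100.2, 102 and 97.4 FPKM and the plexin *Plxnb2* at 81.2, 81.1 and 79.6 FPKM. *Tgfbr2*, the ligand-binding TGF-β receptor, was at 47.1, 43.2 and 45.7 FPKM, *Notch2* at 26.9, 28.7 and 25.9 FPKM and the BMP receptor *Bmpr1a* at 26.2, 25.9 and 27.4 FPKM. The Wnt co-receptors *Lrp5* and *Lrp6* were at 19.2 and 16.9 FPKM on average and the frizzled receptor *Fzd2* at 13.3 FPKM, named after their values were seen because the series tests a Wnt ligand. Cytokine and death receptors were the fullest receptor group, with 22 of 27 genes at 1 FPKM or more and a median of 8.38 FPKM. *Tnfrsf12a*, the receptor of TWEAK, was at 378, 387 and 378 FPKM. *Tnfrsf1a*, *Il6st* and *Ifngr1*, receptor chains for TNF, for the IL-6 family and for interferon γ, had means of 55.5, 53.5 and 39.2 FPKM, and *Il11ra1* was at 21.4 FPKM.

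Channel genes were compared with all genes, of which 25.3% were at the floor, and with coding genes, of which 19.9% were. Of 45 ligand-gated channel genes, 29 were at the floor, 13 had no read and 5 were at 1 FPKM or more: the kainate receptor subunit *Grik5* at 13.1, 13.2 and 12.03 FPKM, the ATP-gated channel *P2rx4* at 10.7, 10.9 and 10.6 FPKM, and *Gria3*, *Glrb* and *Chrnb2* at means of 1.87, 1.31 and 1.09 FPKM. Of 30 voltage-gated sodium and calcium channel genes, 9 were at the floor, 5 had no read and 6 were at 1 FPKM or more. They included the auxiliary subunit *Cacnb3* at 11.7, 10.7 and 11.2 FPKM and the T-type channel *Cacna1i* at 4.39, 5.34 and 4.89 FPKM, with *Cacna2d1* and *Cacnb1* at 3.17 and 1.74 FPKM. No pore-forming sodium channel analysed reached 1 FPKM.

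Of 25 TRP channel genes, 10 were at the floor and 5 were at 1 FPKM or more, and the sensory receptors *Trpm8*, *Trpv1* and *Trpa1* were not among them. The channel kinase *Trpm7* was at 27.9, 28.3 and 28.6 FPKM, the lysosomal channel *Mcoln1* at 28.4, 27.5 and 25.5 FPKM and polycystin-2 (*Pkd2*) at 10.4, 11.3 and 10.3 FPKM. *Trpm4* and *Trpc1* were at 2.35 and 1.65 FPKM. *Trpm8* followed in the seventh place of the list, above *Trpv1*, the capsaicin receptor, at 0.109, 0.277 and 0.1999 FPKM, and the values of the pair overlap between libraries.

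Matrix and adhesion genes differed by group. The shares at 1 FPKM or more were 38.5% for integrins, 35.7% for collagens and 46.2% for other matrix proteins. These were under the 49.4% of all genes and the 59.0% of coding genes. Basement membrane genes reached 73.3% and matrix enzymes and inhibitors 72.5%. Of 26 integrin genes, 10 were at 1 FPKM or more, led by *Itga3* at 452, 434 and 431 FPKM and *Itgb1* at 436, 439 and 435 FPKM, the chains of a laminin receptor. *Itga7*, also a laminin-binding chain, was at 113, 112 and 112 FPKM, *Itgb5* at 58.3, 60.8 and 59.1 FPKM and *Itgav* at 53.8, 55.6 and 53.6 FPKM. Of 15 laminin and basement membrane genes, 11 were at 1 FPKM or more. *Nid2*, a linker of basement membranes, was at 58.4, 54.98 and 53.9 FPKM, the laminin chains *Lamc1*, *Lamb1* and *Lamb2* at means of 46.3, 37.6 and 27.2 FPKM, and the proteoglycan *Hspg2* at 32.1 FPKM.

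Collagens were fewer, with 15 of 42 genes analysed at 1 FPKM or more and a median of 0.0767 FPKM. *Col1a2* was at 126, 123 and 119 FPKM, whereas *Col1a1*, which pairs with it in type I collagen and is named after its values were seen, was at 7.83, 7.42 and 7.14 FPKM. *Col8a1*, *Col5a2*, *Col16a1* and *Col5a1* followed at means of 44.8, 34.1, 20.2 and 10.5 FPKM. Of 52 other matrix proteins, 24 were at 1 FPKM or more, with *Thbs1* at 819, 771 and 771 FPKM, the phosphoprotein *Spp1* at 374, 371 and 385 FPKM and *Thbs2* at 279, 282 and 280.5 FPKM. The syndecan *Sdc4* was at 155, 146 and 153 FPKM and *Ltbp1*, which anchors latent TGF-β, at 131, 132 and 131 FPKM. In *Thbs1*, replicate 1 was above the other libraries.

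Of 40 matrix enzymes and inhibitors, 29 were at 1 FPKM or more, with a median of 8.29 FPKM. The metalloproteinase inhibitors *Timp1* and *Timp2* were at 636, 626 and 638 FPKM and 136, 135 and 134 FPKM. The collagen-crosslinking oxidase *Loxl1* was at 239, 234 and 233 FPKM, the collagen chaperone *Serpinh1* at 175, 175 and 173 FPKM and the collagenase *Mmp13* at 143, 135 and 141 FPKM. The 3 libraries were close together in each of these 5 genes.

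All 27 proliferation genes were at 1 FPKM or more, 24 of them at 10 or more, with a median of 26.2 FPKM. *Ccnd1*, cyclin D1, was at 358, 385 and 366 FPKM and its kinase *Cdk4* at 147, 142 and 145 FPKM. The replication clamp *Pcna* was at 106, 105 and 106 FPKM, *Rrm2*, a ribonucleotide reductase subunit, at 54.3, 51.7 and 51.3 FPKM and the mitotic kinase *Cdk1* at 52.6, 51.7 and 51.4 FPKM. Inhibitors of cyclin-dependent kinases and targets of p53 were also expressed, with 10 of 11 genes analysed from 14 at 1 FPKM or more and a median of 58.7 FPKM. *Ccng1*, *Mdm2*, *Bax*, *Gadd45a* and *Cdkn1a*, all targets of p53, were at means of 195, 128, 123, 106 and 98.8 FPKM.

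The 3 control libraries lay close together. Over the 10648 genes at 1 FPKM or more, Pearson's r of log2(FPKM + 0.1) between libraries, taken across genes that are not independent replicates, was 0.9963 for replicates 1 and 2, 0.9966 for 1 and 3 and 0.9972 for 2 and 3. Differences of more than 2-fold were found in 24, 15 and 7 genes of these pairs, and of more than 1.3-fold in 303, 277 and 281 genes. The median coefficient of variation was 3.86% over genes at 1 FPKM or more and 2.82% over the 5812 genes at 10 or more, of which 114 exceeded 10% and 5 exceeded 20%.

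The spread followed the number of reads. In genes with 10 to 100 mean reads the median coefficient of variation was 26.1%, where counting alone gives 18.7%, and in genes with 10000 or more it was 1.75%, where counting alone gives 0.788%. A chi-square test of the recovered reads against the library totals, with Benjamini-Hochberg adjustment over 13399 genes with at least 10 mean reads, called 4112 genes (30.7%) as differing between the 3 libraries by more than counting error. The share rose with depth, from 23.9% in the class with 10 to 100 mean reads to 58.8% at 10000 or more. Of the mesenchymal list 19 of 42 members tested were called, of the pan-neuronal list 4 of 18, of the Hox genes 9 of 23, of the proliferation list 14 of 27 and of the ribosomal protein genes 59 of 83. These lists differ in depth, and the share called was not compared at matched depth. Replicate 1 was the library farthest from the other pair in 778 called genes as the highest and in 800 as the lowest, of 4111 with an order, against 640 and 706 for replicate 2 and 582 and 605 for replicate 3. Leaving out replicate 1 left 1883 genes called, leaving out replicate 2 left 2241 and leaving out replicate 3 left 2426.

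**Figure D5:**
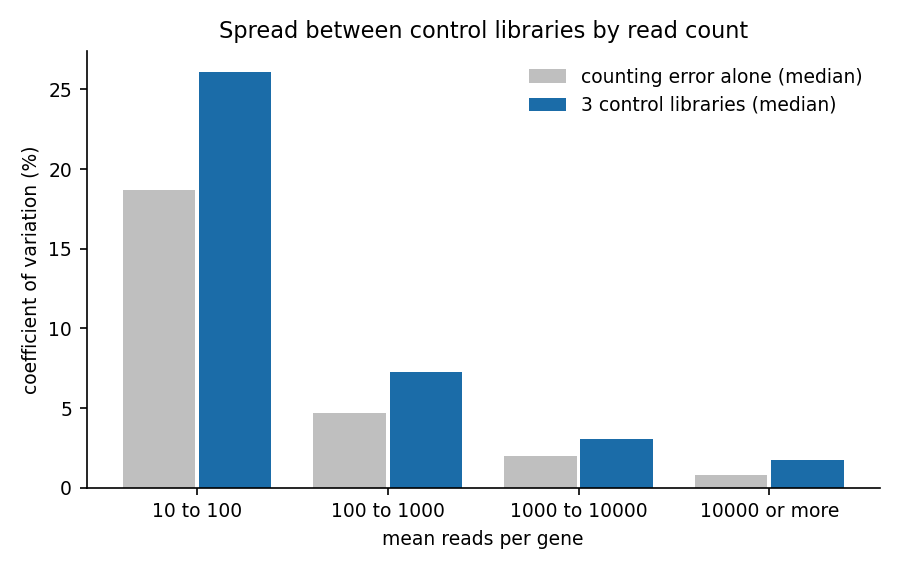
Median coefficient of variation of FPKM over the 3 control libraries (blue) and the value that counting error alone gives (gray), in 4 classes of mean reads per gene. The measured spread is above the counting value in every class, at 26.1% against 18.7% in the lowest and 1.75% against 0.788% in the highest.

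Among genes at 10 FPKM or more, the most variable included a class I MHC gene and metallothioneins. *RT1-A1* had the largest coefficient of variation, 40.9%, with 20.97, 49.4 and 48.7 FPKM, where replicate 1 alone was low. The metallothioneins *Mt1* and *Mt2A*, which bind zinc and copper, were at 158, 93.1 and 117 FPKM and 790.3, 568 and 659 FPKM, highest in replicate 1 and lowest in replicate 2 in both. *RT1-A1*, *Mt1* and *Mt2A* belong to families with close copies, so the split of reads between copies is uncertain for them.

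The 10 most variable also included *LOC498453*, *LOC100360750* and *LOC100360828*, with coefficients of variation of 31.6%, 25.4% and 25.4%, and *Mrpl34*, *Abhd11* and *Arpc5l*, with 16.97%, 16.8% and 16.5%. *Mrpl34* encodes a mitochondrial ribosomal protein and *Arpc5l* a subunit of the actin-nucleating Arp2/3 complex. In *Arpc5l* the values were 10.05, 10.1 and 13.2 FPKM, with replicate 3 high. In *Mrpl34* they were 18.5, 13.8 and 14.02 FPKM, with replicate 1 high.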

How the data were processed

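RNA of ND7/23 cells was extracted with TRIzol and sequenced as paired-end libraries. By the study's methods and the submitters' processing notes, the authors filtered reads with fastp, aligned them with HISAT to mRatBN7.2, counted them per gene with HTSeq and computed the deposited FPKM values, with R 3.2.0 and DESeq2 also named. Other tool versions and the counting options are not given in the sources used here. FPKM is a share of each library, so abundant genes lower all others.

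Values of the 3 control columns are reported, with groups taken from the sample labels. The gene lists and genes named were chosen with earlier results of these data known, and some genes of the series are not reported here. Whole read counts were recovered from the steps of the FPKM values over all 12 libraries in 100% of 21556 genes (relative tolerance 1e-09). For the 1804 genes above 0 in 1 of all libraries, the count rests on 1 value. Totals per control library were 38068742 to 38837023 reads. Means and SDs over the 3 libraries were computed on FPKM, medians of lists within a library on log2(FPKM + 0.1), and genes at 3 reads or fewer were called at the floor. Spread was tested with a chi-square test of the recovered reads in genes with 10 or more mean reads, with Benjamini-Hochberg adjustment and a threshold of 0.05, and the recovery and this test were tested on simulated data. Python 3.11.15, numpy 2.4.6, pandas 2.3.3 and scipy 1.17.1 were used. Start regions were matched by NCBI gene identifier for 76.0% of genes.

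Named genes were the 20 of highest mean FPKM, the 5 most abundant of each of 27 lists, neuronal and sensory list members at 0 to 3 reads, *Trpm8*, *Rest*, *Prph*, *Vim*, Hox genes at 1 FPKM or more, and the 10 with the largest coefficient of variation at 10 FPKM or more. Genes outside this rule were picked with their values in view, and list genes without a row are not analysed here. Alternatives were other pseudocounts, FPKM and read minimums, reads or TPM in place of FPKM, centred libraries and leaving out each library.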

Additional observations from a re-analysis of the deposited data

How the results depend on the processing

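Over 36 results and 144 alternatives, 125 values stayed within the replicate spread or within 1.5 times the count, 19 moved and none reversed. Only the mesenchymal minus neuronal difference has a sign that could reverse, and its lists were chosen with earlier results of these data known. The label moved also covers a change of scale, as for the SD of log2 values. It also covers a shift of the median coefficient of variation from 3.861% to 3.864% with centred libraries. The share of the 10 most abundant genes fell from 11.3% to 6.16% in reads and 5.73% of FPKM without mitochondrially encoded genes. The mesenchymal minus neuronal difference, 5.86 on the log2 scale, was 7.29 with a pseudocount of 0.01, 3.15 with 1, 1.94 over list genes at 0.5 FPKM or more and 4.92 from summed FPKM. The median coefficient of variation, 3.86%, was 8.95% with no FPKM minimum, 2.82% at 10 FPKM or more, 3.86% with centred libraries and 2.98 to 3.24% with 1 library left out, and the median SD of log2(FPKM + 0.1) was 0.0550. The genes varying beyond counting, 4112, numbered 1883 to 2426 with 1 library left out, where fewer libraries enter the test. For the 200 instead of the 100 most abundant genes, the median length was 1065 bases instead of 818.5, the median CpG number 23 instead of 22, and the share of start regions with TATAAA 40 to 15 bases before the start 8% instead of 8.57%. The last pair of features is void as a comparison between classes, since fewer than 80% of the genes had a region. No paired analysis was possible because the results describe 1 group and come from no test between groups. Genes under the 3-read floor cannot be told from 0 at this depth.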

Other observations

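Other gene families, chosen after their values were seen, were described in the control libraries in the same way. Of 27 chemokine genes, 9 were at 10 FPKM or more and 13 were at 3 reads or fewer in every library. *Ccl2*, which attracts monocytes, was at 378, 349 and 373 FPKM, *Cxcl1*, which attracts neutrophils, at 105, 107 and 112 FPKM and *Cxcl12* at 92.6, 91.3 and 89.1 FPKM. *Cxcl16*, *Cxcl3* and *Ccl7* had means of 80.9, 41.7 and 38.1 FPKM, while *Cxcl2* had 8, 6 and 1 reads. Of 15 tubulin genes, 6 exceeded 100 FPKM: *Tubb5* at 507, 498 and 488 FPKM, then *Tuba1b*, *Tuba1c*, *Tubb4b*, *Tuba1a* and *Tubb6*, down to a mean of 147 FPKM. The neuronal *Tubb3* and the brain-enriched *Tubb2b* and *Tubb4a* had at most 5 reads in any library, and the split of reads between the near-identical α-tubulin copies is uncertain. Among 13 S100 genes, *S100a10* and *S100a11* joined the S100 genes given above at 811, 836 and 849.8 FPKM and 530.0, 534 and 539.6 FPKM.

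Of 13 genes grouped by the symbol prefix Igf, which include receptors, binding proteins and RNA-binding proteins, 8 were at 10 FPKM or more. The ligand genes of the insulin-like growth factors were near 0, with 3, 6 and 2 reads for *Igf1* and 0, 1 and 0 for *Igf2*. The binding protein *Igfbp6* was at 74.7, 75.2 and 74.3 FPKM, *Igfbp4* at 71.8, 75.99 and 72.2 FPKM, and the fetal RNA-binding proteins *Igf2bp2*, *Igf2bp1* and *Igf2bp3* at means of 49.98, 21.6 and 19.6 FPKM. Of 12 Wnt ligands analysed, *Wnt7b* was at 20.3, 21.1 and 19.7 FPKM and *Wnt10b* at 11.9, 12.6 and 12.6 FPKM, with the others under 1.3 FPKM on average. The factor *Six3*, known from the developing forebrain and eye, was at 49.4, 51.5 and 50.1 FPKM. The glucose carriers *Slc2a1* and *Slc2a3* were at 249, 242 and 242 FPKM and 106, 103 and 102 FPKM, and the lactate carriers *Slc16a1* and *Slc16a3* at means of 88.1 and 75.7 FPKM. The chaperones *Hspa8* and *Hsp90ab1* were at 1147, 1136 and 1169.5 FPKM and 963, 934 and 938 FPKM. Among non-coding genes, the snoRNA host *Gas5* alone exceeded 100 FPKM, at 151, 158 and 153 FPKM. Of 79 olfactory and 12 vomeronasal receptor genes, none reached 1 FPKM, and 60 and 9 were at 3 reads or fewer in every library.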
